A study of Homo sapiens with 11 samples.

Results

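The prostate lineage genes KLK2, KLK3, TMPRSS2, HOXB13, FOLH1, STEAP1, ACPP and FOXA1 were followed in PC-3 cells, a line of human prostate carcinoma that grows without androgen. The 8 genes were taken by their names in the scanner files, which gave 18 of the 41000 probes on the array, with 3 probes each for KLK2, KLK3 and STEAP1, 2 each for HOXB13, FOLH1, ACPP and FOXA1, and 1 for TMPRSS2. All cells grew in medium with fetal bovine serum, and RNA was taken 24 h after transfection. Mock cells received the transfection reagent alone, and the others received 1 synthetic duplex. This was dsEcad640, a small interfering RNA designed against the E-cadherin promoter, or 1 of 5 microRNA duplexes. The 11 arrays lie on 3 slides, called sets. On the slide of set 1 were mock sample 1, miR-372 sample 4, miR-302a sample 3 and dsEcad640 sample 2. The slide of set 2 carried mock sample 8, miR-373 sample 7 and miR-520f sample 6, which the title of its label calls miR-530f. In set 3 there were 2 mock arrays, samples 9 and 11, beside miR-520c sample 12 and the other miR-372 array, sample 10. Each array received RNA mixed from 4 transfections, and whether the mock arrays came from separate mixes is not given in the sources used here, so that the p-values below measure only the spread between these arrays. RNA was taken from whole cultures, so that fewer cells with a transcript and less of it per cell cannot be told apart.

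Luminal cells of the prostate epithelium are set up by the transcription factors FOXA1 and HOXB13, and androgen drives the secreted proteases KLK2 and KLK3 and the membrane protease TMPRSS2, whereas acid phosphatase (ACPP), the folate hydrolase FOLH1 and the metalloreductase STEAP1 are further products by which prostate tissue is recognised. PC-3 cells are commonly described as making little prostate-specific antigen, the product of KLK3.

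The mature sequences of the 5 microRNAs are shown because their seeds define how the arrays were grouped. Capitals mark the seed, bases 2 to 8 from the 5′ end, by which a small RNA recognises its targets. The sequences and positions are those of RefSeq on GRCh38.p14.
hsa-miR-302a-3p: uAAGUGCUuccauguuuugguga
hsa-miR-372-3p: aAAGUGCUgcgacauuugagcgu
hsa-miR-373-3p: gAAGUGCUucgauuuuggggugu
hsa-miR-520c-3p: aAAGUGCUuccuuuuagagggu
hsa-miR-520f-3p: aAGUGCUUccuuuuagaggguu
They lie at chr4:112648186-112648208 on the minus strand, and at chr19:53787931-53787953, chr19:53788748-53788770, chr19:53707506-53707527 and chr19:53682213-53682234 on the plus strand, in the order shown. The first 4 share 1 seed, which the study also assigns to the antisense strand of dsEcad640, and in miR-520f the seed is shifted by 1 base. The 6 arrays of dsEcad640 and of the first 4 microRNAs are therefore called the common-seed arrays, and miR-520f was kept apart.

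The first question was which lineage genes are detected in mock cells. A probe was called detected when the scanner software marked it as well above background on 3 or more of the 4 mock arrays, and 11 of the 18 probes were, beside 64.7% of all probes. FOXA1, HOXB13, STEAP1 and TMPRSS2 were detected with every probe, 8 in all, and all 8 were well above background on all 11 arrays. KLK2 was detected with 1 of its 3 probes, KLK3 with 1 of 3, FOLH1 with 1 of 2, and ACPP with neither of its 2 probes. The transcription factors, the metalloreductase and the membrane protease were thus measured throughout, and the secreted proteases and FOLH1 only in part.

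**Figure D1:**
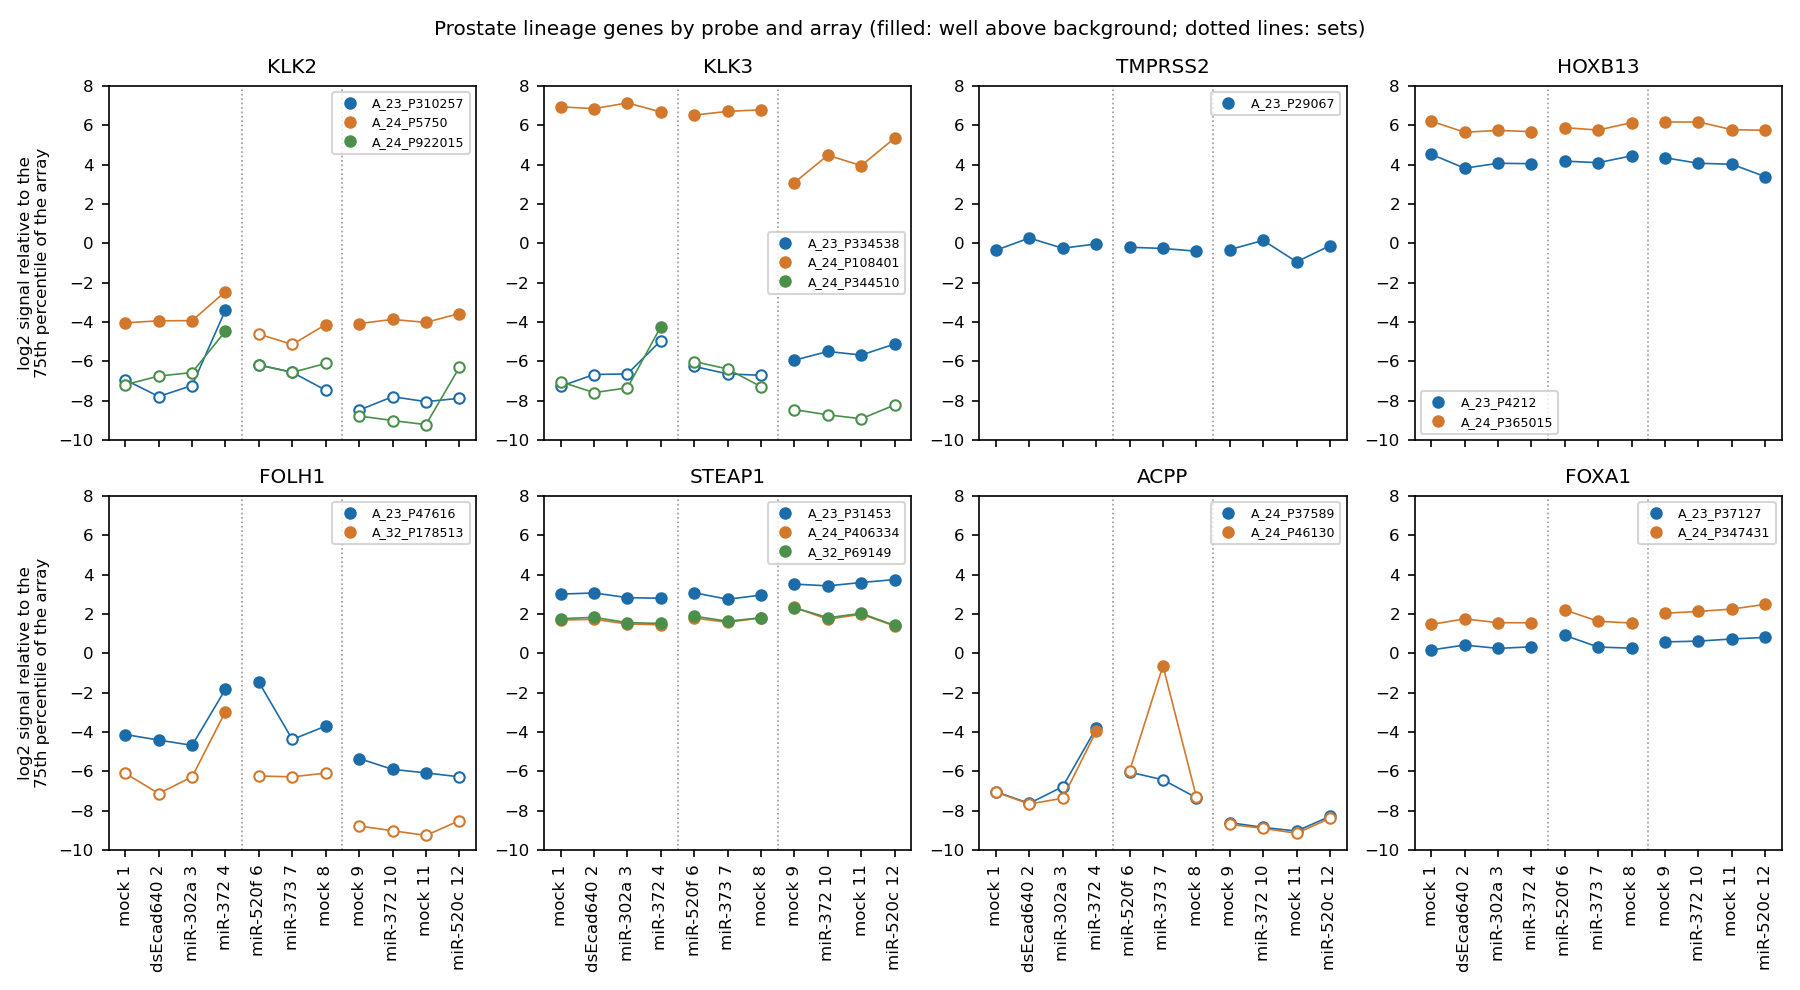
Log2 signal, with the array's 75th percentile as 0 (vertical axis), for the 18 probes of the 8 lineage genes on the 11 arrays (horizontal axis, in 3 sets parted by dotted lines). Each colour within a panel is 1 probe, and filled points are well above background. The probes of FOXA1, HOXB13, STEAP1 and TMPRSS2 are filled on all arrays, and open points of the other genes turn filled mainly on miR-372 sample 4.

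Of the 7 probes that were not detected in mock cells, 5 were marked on 1 array, ACPP A_24_P46130 on 2 and KLK3 A_23_P334538 on 4. On miR-372 sample 4 the software marked 88.1% of all probes, whereas the other arrays had 54.4% to 72.9% of their probes marked. This was the only array that marked both undetected KLK2 probes, the KLK3 probe A_24_P344510, the FOLH1 probe A_32_P178513 and the ACPP probe A_24_P37589, and the part of the array's own high share in these marks was not tested. The processed signal of these 5 probes was 30.4 to 85.8 there and at most 7.56 on the mock arrays. The second miR-372 array, sample 10, marked none of the 5.

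The ACPP probe A_24_P46130, at chr3:133560033-133560092 of hg18, had a processed signal of 402 on miR-373 sample 7 and 42.6 on miR-372 sample 4. On the 4 mock arrays its signal was 3.82, 3.25, 2.37 and 1.76 in samples 1, 8, 9 and 11, and it was not well above background on any of them. On miR-373 the signal was at least 27.3-fold higher than on mock sample 8 of the same set, when the lowest signal marked well above background on that mock array took the place of the dim value. The other ACPP probe, A_24_P37589, gave 7.23 on the miR-373 array and was not well above background there, so that the 2 probes of the acid phosphatase disagreed. Both rest on 1 spot per array, and miR-373 has 1 array.

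The 3 probes of KLK3, which encodes prostate-specific antigen, also disagreed. A_24_P108401, described in the files as an alternatively spliced variant and placed at chr19:56050264-56050323 of hg18, was well above background on all 11 arrays. Its signal was 62586 on mock sample 1, 56812 on mock sample 8, 8363 on mock sample 9 and 15456 on mock sample 11, so that both mock arrays of set 3 were below those of the other sets. A_24_P344510, for transcript variant 1 at chr19:56053565-56053624, was not well above background on any mock array. A_23_P334538, at chr19:56053484-56053543, was well above background on the 4 arrays of set 3 and on no other array, with signals of 16 to 22.5 there. On miR-372 sample 4 its signal was 21.7 without the mark, and on the remaining arrays it was at most 7.92. A_24_P344510 begins 21 bases past the end of A_23_P334538, whereas A_24_P108401 ends 3160 bases before it.

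**Figure D2:**
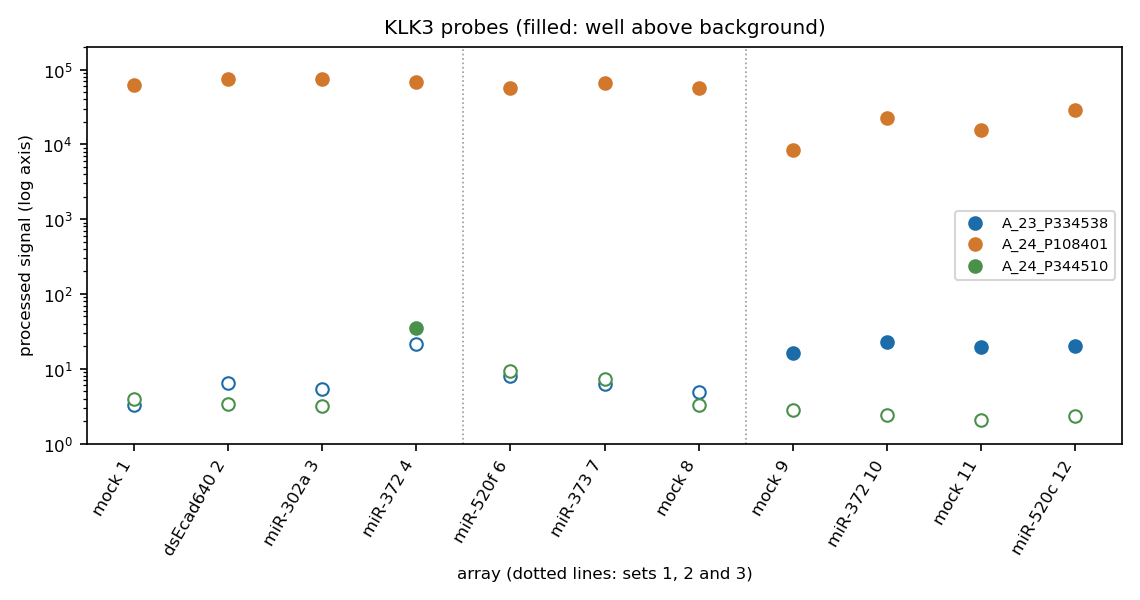
Processed signal on a log axis for the 3 KLK3 probes on each of the 11 arrays, with sets parted by dotted lines and filled points for probes well above background. A_24_P108401 lies between 55832 and 75694 in sets 1 and 2 and between 8363 and 28389 in set 3, and A_23_P334538 is filled in set 3 alone.

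The next question was whether the duplexes changed the lineage genes within their set. Signals were put on the log2 scale relative to the 75th percentile of their array, and the 6 common-seed arrays were compared with the 4 mock arrays with the set as a block. The test was limma's, with Benjamini-Hochberg adjustment over 26967 probes, namely those marked well above background on 6 or more of the 11 arrays that had a value on each array compared. Of the 18 probes, 11 passed this filter and 7 did not. None of the 11 was called at an adjusted p under 0.05, beside 4.31% of all probes. For 11 probes, no call is near that share and does not set them apart. At an unadjusted p under 0.05 there were 4 of the 11, beside 21.2% of all probes, and they belonged to HOXB13, STEAP1 (2 probes) and TMPRSS2. The median log2 difference of the 11 probes was -0.07, beside 0.03 over all probes tested, and their adjusted p ranged from 0.122 to 0.923.

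HOXB13, a homeobox transcription factor of prostate epithelium, was below the mock arrays of the set on most duplex arrays. The probe A_23_P4212, at chr17:44158898-44158957 on the minus strand, had log2 values of 4.53, 4.45, 4.35 and 4.02 on mock samples 1, 8, 9 and 11. On the common-seed arrays its lowest log2 value was 3.39, its median 4.06 and its highest 4.10, and on miR-520f it was 4.18. Mock sample 11 lay within the range of the common-seed arrays, so that the groups overlapped, and the other mock arrays lay above it. Within the sets, 6 of 6 common-seed arrays lay below the mock mean, with log2 differences from -0.79 to -0.12. In the fit the log2 difference was -0.46 with an SE of 0.15 and a 95% interval from -0.81 to -0.12, and the adjusted p was 0.122.

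The other HOXB13 probe, A_24_P365015, lies 1695 bases from the first, at chr17:44157143-44157202. Its log2 values were 6.21, 6.14, 6.17 and 5.78 on mock samples 1, 8, 9 and 11, and from 5.65 to 6.17 with a median of 5.74 on the common-seed arrays. It was lower than the mock arrays of its set on 5 of 6 arrays, and on miR-372 sample 10 it was 0.20 higher. The fit gave a log2 difference of -0.27 ± 0.14 (SE, 6 and 4 arrays), with a 95% interval from -0.59 to 0.06 and an adjusted p of 0.333. Mock samples 9 and 11, which share a slide, differed from each other by 0.33 and 0.39 at the 2 probes.

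FOXA1, a forkhead factor that opens chromatin for other transcription factors, has 2 probes 32 bases apart, of which A_23_P37127, at chr14:37129297-37129356, is printed 10 times on each array. The SD between these spots was 0.05 to 0.12 on the log2 scale. Its log2 values were 0.17 and 0.26 on mock samples 1 and 8 and, in set 3, 0.58 and 0.73 on mock samples 9 and 11. On the common-seed arrays they ran from 0.25 to 0.81 with a median of 0.37, overlapping the mock values. Its fitted log2 difference was 0.09 ± 0.08 (SE), with a 95% interval from -0.10 to 0.28, and at A_24_P347431 it was 0.14 with an interval from -0.10 to 0.37. Under limma with Benjamini-Hochberg adjustment the adjusted p was 0.593 and 0.499. A change of FOXA1 beyond these intervals was therefore not seen over the common-seed arrays, and a smaller one was not detectable with 10 arrays.

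On the miR-520f array FOXA1 stood at log2 values of 0.91 at A_23_P37127 and 2.20 at A_24_P347431. These were above mock sample 8 of the same set by 0.65 and 0.66, while the largest difference on a common-seed array was 0.25 at the first probe and 0.34 at the second. The miR-373 array of the same set was 0.05 and 0.09 above that mock array. miR-520f has 1 array, so that this difference has no replicate check.

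STEAP1, a metalloreductase of the cell surface, was measured by 3 probes, and A_24_P406334 and A_32_P69149 share 22 bases, so that they are not separate measurements. At A_24_P406334, chr7:89628467-89628526, the log2 values were 1.69, 1.80, 2.33 and 1.99 on mock samples 1, 8, 9 and 11. On the common-seed arrays they ran from 1.39 to 1.73 with a median of 1.54, and dsEcad640 sample 2 and miR-372 sample 10, at 1.73 each, lay above the lowest mock value. The fitted log2 difference was -0.36 ± 0.14 (SE) with a 95% interval from -0.68 to -0.04 and an adjusted p of 0.18, and at A_32_P69149 it was -0.33 with an adjusted p of 0.224. At A_23_P31453, 3375 bases away at chr7:89631940-89631999, the difference was -0.07, with an interval from -0.31 to 0.17 and an adjusted p of 0.772. None of the 3 passed the test.

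The largest difference of STEAP1 within a set was on miR-520c sample 12, where A_24_P406334 was 0.94 below mock sample 9 and 0.60 below mock sample 11. At A_23_P31453 the same array was 0.23 and 0.16 above these mock arrays. The probes of STEAP1 therefore differed in direction on miR-520c.

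TMPRSS2, a serine protease of the cell surface, had the only 1 of the 11 probes tested whose mock and common-seed arrays did not overlap, beside 6.65% of all probes tested, and 3.27% with the common-seed arrays above. Its probe A_23_P29067, at chr21:41758774-41758833, had log2 values of -0.35, -0.40, -0.32 and -0.94 on mock samples 1, 8, 9 and 11. On the common-seed arrays the lowest value was -0.26, the median -0.08 and the highest 0.27, and on miR-520f it was -0.20. All 6 common-seed arrays lay above the mock arrays of their set, by 0.10 to 0.77. By the fit the log2 difference was 0.43 ± 0.17 (SE), a ratio of 1.35, with a 95% interval from 0.03 to 0.83 and an adjusted p of 0.198. Mock sample 11 was 0.62 below mock sample 9, and without it the fitted difference was 0.29.

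The kallikrein KLK2, a secreted protease, gave 1 probe to the fit, A_24_P5750. Its log2 values were -4.04, -4.13, -4.08 and -4.02 on mock samples 1, 8, 9 and 11, a narrow range, and from -5.14 to -2.45 with a median of -3.90 on the common-seed arrays. The highest of these was on miR-372 sample 4, and the lowest, on miR-373, was not well above background. For KLK2 the fitted log2 difference was 0.12 with a 95% interval from -0.73 to 0.97, but -0.05 when miR-372 sample 4 was left out and -0.12 when mock sample 1 was. No direction can be given for KLK2.

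FOLH1, known as prostate-specific membrane antigen, gave the probe A_23_P47616 at chr11:49124936-49124995 to the fit. A near-identical gene, FOLH1B, which the array names PSMAL, may share signal with it. Its log2 values were -4.13, -3.70, -5.35 and -6.08 on mock samples 1, 8, 9 and 11, with both arrays of set 3 lowest. On miR-520f it was -1.47 and on miR-372 sample 4 it was -1.82, which were 2.23 and 2.31 above the mock array of the respective set, and on the other 5 duplex arrays it was 0.19 to 0.68 below. The second miR-372 array was among those below, at -5.90. The fitted log2 difference for the common seed was -0.16, with a 95% interval from -1.48 to 1.16 and an adjusted p of 0.923, and without mock sample 9 it was 0.01. The 2 common-seed values that were not well above background, on miR-373 and miR-520c, entered the fit as measured. Against these, the mock signal of the set was at least 1.6-fold and 1.48-fold higher.

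At the KLK3 probe A_24_P108401 the fitted log2 difference was 0.58 ± 0.34 (SE), with a 95% interval from -0.21 to 1.37 and an adjusted p of 0.386. The difference came from set 3, where miR-372 sample 10 and miR-520c sample 12 were 0.96 and 1.83 above the mean of the mock arrays. In sets 1 and 2 the common-seed arrays differed from their mock array by -0.26 to 0.20. In set 3, mock sample 9 was itself 0.86 below mock sample 11.

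Each duplex was also compared with the mock arrays in 1 fit with a mean per condition and the set as a block, which left 2 residual degrees of freedom. It called no lineage probe for any duplex at an adjusted p under 0.05, and 0% of all 26919 probes for each of the 6 duplexes. On simulated data with 200 of 26919 probes changed, this fit called 0% of probes changed by 1 or by 2 on the log2 scale. The simulation changed fewer probes than the 1162 called for the common seed in the data. After normexp correction the fit called 0 to 141 probes per duplex, none of them a lineage probe. Its lack of calls is therefore not read as a lack of change, and unadjusted counts of the main fit are given as a description. At an unadjusted p under 0.05, none of the 11 lineage probes was found for dsEcad640, miR-302a, miR-372 or miR-373, beside 7.84%, 3.93%, 9.52% and 3.57% of all probes. For miR-520c there were 4, beside 17.1% of all probes, namely HOXB13 A_23_P4212 at -0.85, STEAP1 A_24_P406334 at -0.75, STEAP1 A_32_P69149 at -0.74 and KLK3 A_24_P108401 at 1.65. For miR-520f there were 2, beside 7.59% of all probes, and they were the FOXA1 probes at 0.65 and 0.66. At an adjusted p under 0.05, calls for FOLH1 and KLK2 appeared when 1 array was left out, in fits with 1 residual degree of freedom. Without mock sample 1, FOLH1 A_23_P47616 was called for dsEcad640 at -2.77 and for miR-302a at -3.05, with adjusted p of 0.0273 and 0.0288, in fits that called 2463 and 1615 probes in all. That array is the only mock array of set 1, so that these values reach mock only through the 2 miR-372 arrays, at -1.82 and -5.90, while the differences within set 1 were -0.28 and -0.55. Without miR-372 sample 10, FOLH1 and KLK2 A_24_P5750 were called for miR-372 at 2.31 and 1.59, with adjusted p of 0.0153 and 0.0168, among 3203 probes, and these are the values of sample 4 alone.

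Because each set is 1 slide, the lineage genes were compared between set 3 and the mean of sets 1 and 2 over the 10 mock and common-seed arrays, with the group as a covariate. Of the 11 probes, 5 were called at an adjusted p under 0.05 by limma, beside 48.9% of all probes. FOXA1 was higher in set 3 by 0.41 and 0.66 at its 2 probes, with adjusted p of 0.00476 and 0.00155, of which the first was 0.0524 over the mock arrays alone. STEAP1 A_23_P31453 was higher by 0.67 with an adjusted p of 0.00156. KLK3 A_24_P108401 had a log2 difference of -2.54 with a 95% interval from -3.33 to -1.74 and an adjusted p of 0.000914. FOLH1 A_23_P47616 had a log2 difference of -2.02 with an adjusted p of 0.0203, and without mock sample 8, mock sample 11 or miR-372 sample 10 the difference was -1.84, -1.94 or -2.06 with an adjusted p of 0.0873, 0.0558 or 0.0503. The differences between slides at FOXA1 and KLK3 were larger than those between the common-seed and mock arrays of a slide. The HOXB13 probes A_23_P4212 and A_24_P365015 and the TMPRSS2 probe had adjusted p of 0.137, 0.804 and 0.85, and A_23_P4212 was called without miR-372 sample 10, at -0.44 with an adjusted p of 0.0372. With the deposited log2 values, in which the median of all probes was itself 0.65 higher in set 3, 8 of 9 lineage probes were called. HOXB13 A_24_P365015 was then at 0.70 and TMPRSS2 at 0.61, with adjusted p of 0.00416 and 0.00817, close to that median.

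To describe which genes behaved most like a lineage gene, log2 values were centred on the mean of their set, and Pearson correlations were taken over the 11 arrays with all probes well above background on every array. The 3 closest genes to HOXB13 A_23_P4212 were WSB2, ZFP91 and TMEM53, with r of 0.99, 0.98 and 0.98, and to HOXB13 A_24_P365015 they were TM7SF2, TCF25 and COL13A1, with r of 0.96, 0.96 and 0.95. STEAP1 A_23_P31453 was closest to USP18, a gene of the interferon response, and the unnamed transcript THC2756939, with r of 0.96 each. The overlapping STEAP1 probes were closest to TXNDC4, with r of 0.98 and 0.99, and NDRG1 and C1orf156 followed for A_24_P406334, and LOC400027 and YIPF5 for A_32_P69149, with r of 0.98 for all 4. TMPRSS2 was closest to 2 sequences without a gene symbol, A_24_P401150 and THC2606799, with r of 0.96 each, and then to CTCF with r of 0.94. FOXA1 A_23_P37127 was closest to AV714556, ROR1 and ANKRD57, with r of 0.98, 0.98 and 0.97, and A_24_P347431 to A_32_P36075, BC030112 and PDXK, with r of 0.98, 0.97 and 0.97. KLK3 A_24_P108401 was closest to C9orf62, GDNF and KIAA1856, with r of 0.99 each. The arrays of a set share a slide and their mock arrays, and these genes were picked as the highest of at least 21400 correlations, so that r describes likeness and carries no test.

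The other genes of prostate lineage were read from 7 lists, of which 150 probes are on the array and 91 passed the filter. Of these, 11 probes of 7 genes were called for the common seed, all of them higher, beside 2.22% of all probes called higher and 2.09% called lower. They were the GATA factor GATA2, the androgen-induced genes PTGER4, ELL2 and C1orf116, the prostate-restricted transporter gene SLC45A3, and the keratins KRT8 and KRT18. KRT8, KRT18 and C1orf116 gave multiple called probes each, but the C1orf116 probe A_23_P897 passed the filter only through the common-seed arrays, where it was higher. The lists were chosen with earlier results of these data known, so that their share of calls beside that of all probes is a description and carries no test. The lineage genes themselves had no such call, which for 11 probes is near the share over all probes. The difference between them and the called genes was not tested.

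Among the genes on the list of 12 regulators of prostate cells, GATA2 A_23_P110022 rose by 0.53 ± 0.12 (SE), higher on 6 of 6 arrays, with an adjusted p of 0.0498 by limma that passed the threshold narrowly and was 0.0443 to 0.16 when 1 array was left out, 0.0562 after quantile normalization and 0.0587 after normexp correction. Its other probe A_24_P165998 gave 0.78 with an adjusted p of 0.256. Of 15 probes tested for the regulators, 1 was called and the median log2 difference was 0.18. The 3 detected on all 4 mock arrays with the highest mean signal, SPDEF, HOXA13 and NR3C1, gave log2 differences of 0.27, 0.30 and -0.26 at A_23_P111194, A_23_P389281 and A_23_P214059, with adjusted p of 0.29, 0.121 and 0.21. The other HOXA13 probe, A_23_P31306, gave 0.18 with an adjusted p of 0.75 by limma and was higher on 3 of 6 arrays. The other NR3C1 probe, A_24_P214754, gave -0.25 with an adjusted p of 0.207.

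Of 30 probes of androgen-induced genes, 4 were called, all higher, and the median log2 difference was 0.10. C1orf116, also known as the androgen-regulated gene SARG, rose by 1.65 ± 0.24 (SE) at A_23_P897 and by 1.29 ± 0.28 at A_23_P12292, with adjusted p of 0.0131 and 0.0443. The mock log2 values at A_23_P897 ran from -6.53 to -4.63 and the common-seed values from -4.52 to -3.50, with no overlap, although mock sample 1 and the 3 arrays of set 2 were not well above background. With 2 mock arrays marked, A_23_P897 passed the filter only through the common-seed arrays, where it was higher. Its call is therefore a description and carries no support. After normexp correction the differences at A_23_P897 and A_23_P12292 were 0.31 and 0.53, with adjusted p of 0.257 and 0.161. After quantile normalization they were 1.45 and 1.08, with adjusted p of 0.211 and 0.205, so that neither call held. ELL2, an elongation factor of RNA polymerase II, rose by 0.79 ± 0.10 at A_23_P58506, where the mock values ran from 1.78 to 1.98 and the common-seed values from 2.51 to 2.85. The other 2 ELL2 probes, A_23_P41645 and A_23_P251011, had log2 differences of 0.71 and 1.23 and adjusted p of 0.0606 and 0.124. PTGER4, a prostaglandin receptor, rose by 0.68 ± 0.13 at A_23_P148047 with an adjusted p of 0.0333, and its other probe A_23_P435394 gave 0.13 with an adjusted p of 0.923. Among the alternative settings the PTGER4 call held in 6 and was lost in 7. NDRG1 A_23_P20494 and CENPN A_23_P88740, named with ELL2 for their mean signal among the genes detected on all 4 mock arrays, gave log2 differences of -0.51 and 0.18 with adjusted p of 0.196 and 0.346. At NDRG1 A_24_P38387 the difference was -0.01 with an adjusted p of 0.991. CENPN A_23_P355075 and A_24_P392109 gave -0.24 and -0.08 with adjusted p of 0.237 and 0.621, so that the CENPN probes differed in direction.

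Of the genes restricted to prostate, 15 of 17 symbols are on the array and 5 genes were detected in mock cells. SLC45A3, whose product prostein is a marker of prostate epithelium, had log2 values of 0.67, 0.72, 0.91 and 0.77 on mock samples 1, 8, 9 and 11. The common-seed arrays ran from 1.37 to 2.46 with a median of 1.71, all above the mock arrays, and miR-520f was at 1.11. SLC45A3 rose by 1.12 ± 0.17 (SE), a ratio of 2.18, with an adjusted p of 0.0148. Among the alternative settings this call held in 7 and was lost in 6. By limma the adjusted p was 0.0505 with no set block, 0.054 with no filter and 0.01 to 0.0941 when 1 array was left out. AMACR, an enzyme of branched-chain fatty acid oxidation, had a log2 difference of -0.59 and an adjusted p of 0.0905, and was lower on 6 of 6 arrays. STEAP2, a relative of STEAP1, had a log2 difference of -0.11 with an adjusted p of 0.511. Of 24 probes for relatives of the lineage genes none was called, and FOXA2 A_23_P500936, STEAP3 A_23_P90601 and HOXB6 A_23_P66682 gave log2 differences of 0.52, 0.11 and 0.35 with adjusted p of 0.0527, 0.621 and 0.153. The other FOXA2 probes, A_24_P365515 and A_24_P365523, gave 0.20 and 0.16 with adjusted p of 0.288 and 0.612.

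The epithelial identity of the cells was read from keratins. All 4 luminal keratin genes were detected in mock cells, 5 of their 8 probes were called, all higher, and the median log2 difference of the 8 was 0.60. KRT18 rose by 0.62 to 0.79 at 3 of its 4 probes with adjusted p of 0.00573 to 0.011, and KRT8 by 0.50 and 0.88 at its 2 probes with adjusted p of 0.0156 and 0.0284. Among the alternative settings each of these KRT18 calls was lost in 1 and held in 12. The KRT8 calls at A_23_P14072 and A_24_P67395 were lost in 6 and 7 and held in 7 and 6. At KRT18 A_24_P42136 the mock log2 values ran from 4.05 to 4.26 and the common-seed values from 4.72 to 5.11. The KRT18 probe A_24_P924957 gave 0.49 with an adjusted p of 0.106, and KRT19 A_23_P66798 gave 0.32 with an adjusted p of 0.112. Of the basal markers, 4 of 7 genes on the array were detected, none of 5 probes was called, and CD44, ITGA6 and KRT15 gave 0.25, 0.26 and 0.16 with adjusted p of 0.254, 0.203 and 0.61. The 2 probes of KRT14, A_23_P4335 and A_24_P265346, gave -0.33 and 0.12 with adjusted p of 0.373 and 0.924. Of 9 neuroendocrine markers 3 were detected, none of 4 probes tested was called, and ENO2, CHGA and INSM1 gave -0.44, 0.12 and 0.34 with adjusted p of 0.262, 0.761 and 0.659.

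The number of calls over the 7 lists changed when 1 array was left out. Without mock sample 1 none of the 11 list probes was called, without mock sample 8 there were 5, without mock sample 9 or 11 there were 6 each, without miR-372 sample 10 there were 5, and without miR-372 sample 4 all 11 were. The fitted differences of these probes kept their sign in every one of these fits, and without mock sample 1, the only mock array of set 1, KRT18 A_24_P42136 was at 0.78, SLC45A3 at 1.22 and ELL2 A_23_P58506 at 0.76. None of the 11 lineage probes was called for the common seed in any of them.

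**Figure D3:**
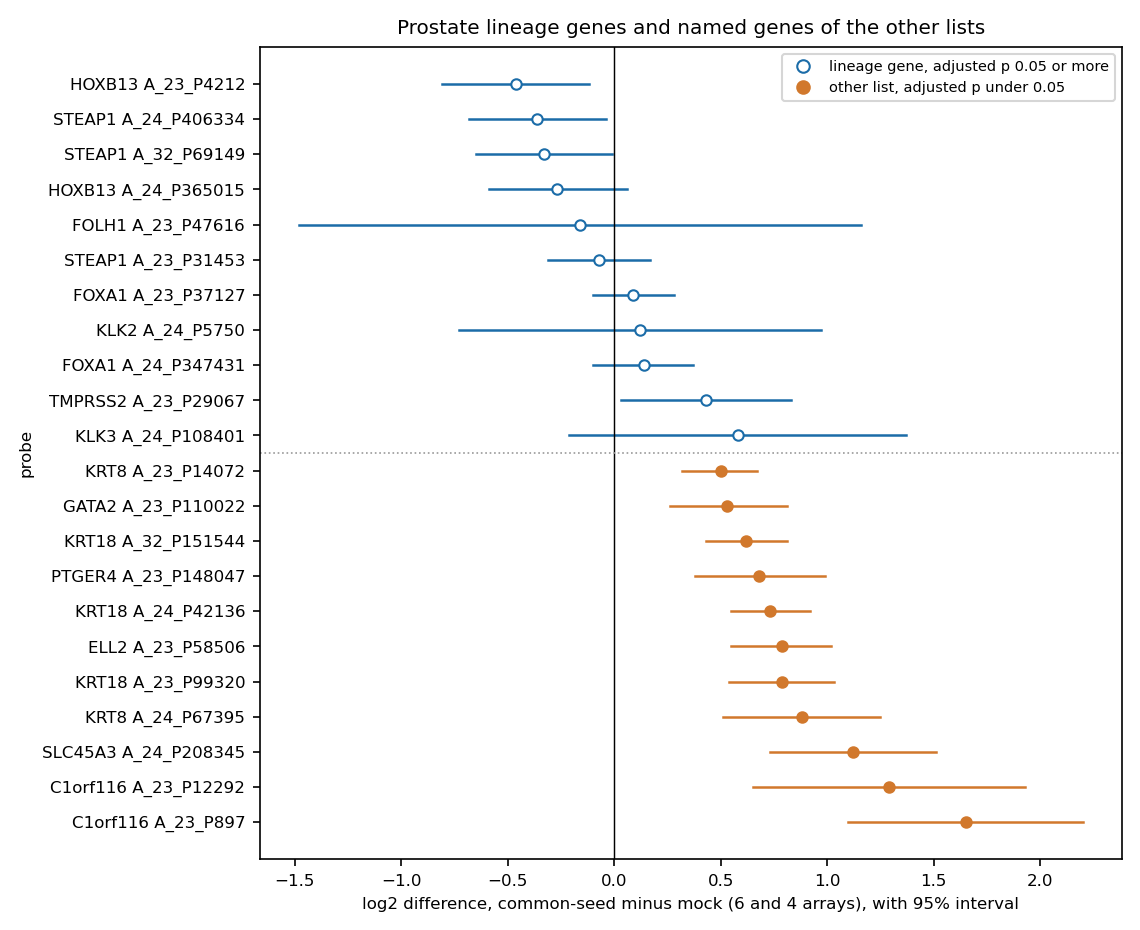
Fitted log2 difference of 6 common-seed and 4 mock arrays with its 95% interval (horizontal axis) for the 11 lineage probes (blue, above the dotted line) and for the called probes of the other lists (orange). Filled points have an adjusted p under 0.05. All lineage probes are open, between -0.46 and 0.58, and the filled points lie between 0.50 and 1.65.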

How the data were processed

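Gene expression in PC-3 cells was measured on 11 Agilent 1-colour whole human genome arrays. The authors deposited the output of Feature Extraction 10.5.1.1, in which, per the file headers, the processed signal is an intensity with the background subtracted and detrended, without scaling between arrays, and a table of log2 values of the same arrays whose normalization is not given in the sources used here. Coordinates are those of hg18 from the scanner files. Outlier spots (52 to 209 of 43376 per array) were dropped, the log2 of each signal was set against the 75th percentile of its array, and replicate spots were averaged. A probe counted as well above background when more than 0.5 of its spots were so marked. Fits used limma 3.58.1 in R 4.3.3, with Python 3.11.15, numpy 2.4.6, pandas 2.3.3, scipy 1.17.1 and matplotlib 3.10.9. Probes without a value on an array of a fit were left out of it. On simulated data with 200 changed probes, the common-seed fit over 26919 probes recovered 55.5% of those changed by 1 and 87% of those changed by 2 on the log2 scale.

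The genes and lists were chosen with earlier results of these data known. Named were all probes of the 8 lineage genes, every list probe called, the 3 genes of each list marked on the most mock arrays, with ties, which were frequent, broken by the mean log2 value on the mock arrays, and the 3 genes most like each lineage probe well above background on all arrays. The alternatives were no set block, quantile normalization, normexp correction (offset 50), a filter on dim probes that was absent or asked for all 11 arrays, the deposited log2 values, the mean of a gene's probes and single arrays left out. For the comparison between sets, the deposited values, normexp correction and the filter on all arrays were added after seeing the data. Of the list symbols, PMEPA1, FOLH1B and TP63 are on the array under the older names TMEPAI, PSMAL and TP73L, and PCA3 was not analysed here. Some genes that this rule names are not reported here.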

Additional observations from a re-analysis of the deposited data

Results flagged for a closer look

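Within a group of 4 to 10 arrays, 1 array stood far from the others in 3 of 44 groups looked at over the named probes, where chance alone gives about 5%. On the mock arrays, sample 11 was lowest at TMPRSS2 A_23_P29067 (log2 value -0.94, next -0.40) and at HOXB13 A_24_P365015 (5.78, next 6.14). On the common-seed arrays, miR-372 sample 10 was highest at HOXB13 A_24_P365015 (6.17, next 5.76).

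Of the 7 probes that the fits did not use, 6 were well above background on a duplex array and on no mock array. The signals on miR-372 sample 4 were 63.8 at KLK2 A_23_P310257, 30.4 at KLK2 A_24_P922015, 35.4 at KLK3 A_24_P344510, 85.8 at FOLH1 A_32_P178513 and 47.7 at ACPP A_24_P37589. On miR-373 sample 7 the signal was 402 at ACPP A_24_P46130.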

How the results depend on the processing

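Under every alternative tried, none of the lineage probes was called for the common seed, the adjusted p of the 11 was 0.0732 or more, and with the filter off all 18 probes were tested. Of 139 values of the 11 probes under alternatives 134 kept their sign, and the exceptions, none past the threshold, were FOLH1 A_23_P47616 at 0.24 with no set block, 0.02 after normexp correction and 0.01 without mock sample 9, and KLK2 A_24_P5750 at -0.12 without mock sample 1 and -0.05 without miR-372 sample 4. Over the fits that left out 1 array, FOLH1 ran from -0.48 to 0.01 and KLK2 from -0.12 to 0.44. In the fits of each duplex, 0 to 2 lineage calls were made when 1 array was left out: FOLH1 for dsEcad640 and miR-302a without mock sample 1, and FOLH1 and KLK2 for miR-372 without sample 10, with 1 residual degree of freedom in each. Without mock sample 8 the fit of each duplex could not be made. Calls over the 7 lists numbered 4 with no set block, 5 with no filter and 5 over the mean of a gene's probes, 9 to 14 under the other settings, and 0 to 13 when 1 array was left out. These totals include probes that the main fit did not call. Of its 11 called probes, 8 were still called after quantile normalization and 8 after normexp correction. With the deposited values 9 of 10 were, and with the filter on all arrays 10 of 10. Over all probes, the common-seed calls were 1162, and 387 with no set block, 224 with no filter, 2007 with the deposited values, 2100 with a filter on all 11 arrays, and 24 to 1936 when 1 array was left out. Lineage calls between sets were 4 to 6 of 11 under quantile normalization, normexp correction, the mock arrays alone or 1 array left out, 6 of 18 with no filter, 4 of 9 with the filter on all arrays and 8 of 9 with the deposited values, and detected probes 11 or 12 of 18. The number of arrays limits the precision: a change of 1 on the log2 scale was recovered for 55.5% of the 200 probes changed in simulated data, where the other probes had no change. Fewer probes were changed there than the 1162 called in the data, so that the share recovered holds for that setting.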
